A study of Mus musculus with 18 samples.

Results

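MRTFB was compared directly with MRTFA in B16F10 cells, a mouse melanoma line. The comparison set 3 RNA-seq libraries of cells carrying MRTFB against 3 libraries of cells carrying MRTFA, chosen by the line and transgene in the sample labels. They are 6 of the study's 18 libraries, and no control library enters the contrast. All cells, controls included, received doxycycline at 500 ng/mL for 48 h, which switches on the transgene of the pRetrox vector. The groups used here were B16F10 with MRTFB, B16F10 with MRTFA and B16F10 with the pRetrox control, each with 3 libraries. For the comparison between lines, E0771 mammary tumour cells with MRTFB, with MRTFA and with the pRetrox control were used, also with 3 libraries each. The E0771 controls had no weight in that comparison and entered only the choice of tested genes and the fitted spread. B16F10 is labelled as of strain C57BL6. The sources used here do not say whether the cells carrying a transgene were a clone or a pool, or from which species the transgenes came. They also do not say whether replicates were separate cultures, so p-values measure only the spread between these libraries, which may be technical.

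MRTFA and MRTFB (myocardin-related transcription factors, encoded in the mouse by genes listed here under the older symbols Mkl1 and Mkl2) are coactivators of serum response factor, SRF. Both bind monomeric actin through RPEL motifs, and when actin polymerises they accumulate in the nucleus and join SRF at CArG boxes. The genes they switch on build the actin cytoskeleton, focal adhesions and the contractile apparatus of smooth and striated muscle. In tumour cells they are known for their part in invasion, in cell stiffness and in the sensing of mechanical load. The direct contrast addresses how far gene expression differs between cells carrying the one paralog and cells carrying the other.

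Values are scaled reads, that is reads per gene divided by the library's size factor, and they are not divided by gene length. Fold changes are log2 differences, MRTFB minus MRTFA, of the scaled value plus 1, fitted by limma with the replicate number as a block. A gene is called where limma's p, adjusted by Benjamini-Hochberg over all 13517 tested genes, is under 0.05. The 6 libraries held 29928592 to 32145430 reads. All 10 defining melanocyte markers were present, with summed levels of 576280 to 725364 scaled reads in MRTFB libraries, 634120 to 710891 in MRTFA libraries and 610010 to 777734 in controls, and 0 of the 10 were called. Of the 12 markers of mammary epithelium, 9 were in the table. They summed to 40.0 to 94.2 scaled reads in MRTFB libraries, 123 to 198 in MRTFA libraries and 51.6 to 59.2 in controls, and 2 of them were called lower, Krt7 (0, 1.04 and 34.1 scaled reads in MRTFB libraries, against 56.5, 30.0 and 85.8 in MRTFA libraries) and Krt19 (0, 1.04 and 2.004 in MRTFB libraries, against 24.2, 12.4 and 29.6 in MRTFA libraries). Krt19 passed the filter on low values through the MRTFA libraries alone, so it had to differ. The Krt7 call was lost without MRTFB replicate 1 or 2 (adjusted p = 0.189 and 0.2) and without MRTFA replicate 1, 2 or 3 (0.19, 0.193 and 0.0681). The part of these markers in the results was not tested. Of the defining markers of immune, endothelial and fibroblast cells 0 were called. Separate gene lists of such markers had 4 tested immune genes, of which 1 was called lower, and 6 tested endothelial and fibroblast genes, of which 0 were called. Over all tested genes 2.56% were called lower. The immune gene called was Coro1a, which had 4.77, 5.18 and 3.01 scaled reads in MRTFB libraries, against 20.2, 25.9 and 24.8 in MRTFA libraries. This call was lost without MRTFA replicate 2 or 3 (adjusted p = 0.0746 and 0.0513).

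Replicate 3 was often the highest library of its B16F10 group. Over the genes called lower in the contrast, the median log2 difference between replicate 3 and the mean of replicates 1 and 2 was 0.59 in MRTFB libraries, 0.45 in MRTFA libraries and 0.16 in controls. Replicate 3 had the highest value of its group for 250 of those 346 genes in MRTFB libraries, 254 in MRTFA libraries and 183 in controls. An interferon-induced gene, the antiviral oligoadenylate synthetase Oas1a, was also high in replicate 3, with 56.2, 42.5 and 497 scaled reads in MRTFB replicates 1, 2 and 3, 85.7, 47.6 and 823 in MRTFA replicates and 117, 57.5 and 520.2 in controls. The block compares libraries of equal number. Within pairs of equal number all 346 genes were lower in MRTFB, with a median log2 difference of -1.68 in replicate 1, -1.48 in replicate 2 and -1.20 in replicate 3. Calling selects for such agreement, since the fitted difference is the mean of these 3 pair differences. Over all 13517 tested genes, 6314, 7151 and 6474 were lower in MRTFB in replicates 1, 2 and 3.

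The genes of the transgenes were not called, and their values overlapped between the groups, though each pair of equal number lay in the labelled direction. Mkl1 (ENSMUSG00000042292.16, chromosome 15, 81012281 to 81190757, GRCm38) had 977, 768 and 1131 scaled reads in MRTFB libraries, against 1398, 902 and 1314 in MRTFA libraries (log2 fold change -0.32, SE 0.11, adjusted p = 0.301). Mkl2 (ENSMUSG00000009569.14, chromosome 16, 13256481 to 13417529) had 1964, 1738 and 1955 scaled reads in MRTFB libraries, against 1715, 1574 and 1938 in MRTFA libraries (log2 fold change 0.12, SE 0.09, adjusted p = 0.709). The log2 differences of replicates 1, 2 and 3 were -0.52, -0.23 and -0.22 for Mkl1 and 0.20, 0.14 and 0.01 for Mkl2, and the 95% intervals of the fitted differences were -0.58 to -0.07 for Mkl1 and -0.08 to 0.31 for Mkl2. In fits of the 6 libraries alone with the block, Mkl1 was called by limma (adjusted p = 0.0333) and edgeR (adjusted p = 0.0279). Mkl2 was called under none of the 20 other settings run. In B16F10 controls Mkl1 had 1109, 987 and 950 scaled reads, and Mkl2 had 1290, 1333 and 1881. Whether the transgenes were expressed at equal levels was not tested. In E0771 cells Mkl1 had 1037, 1341 and 1699 scaled reads in MRTFB libraries, against 12469, 16556 and 12159.7 in MRTFA libraries, and the groups were far apart. Mkl2 had 2056, 2206 and 2211 in E0771 MRTFB libraries, against 1068, 1182 and 1301 in E0771 MRTFA libraries. Srf, the DNA-binding partner of both proteins, had 1236, 1466 and 1854 scaled reads in MRTFB libraries, against 2067, 1553 and 2369 in MRTFA libraries (log2 fold change -0.39, SE 0.12, adjusted p = 0.172), with overlapping values. Its call depended on the setting: without MRTFA replicate 2 the adjusted p was 0.0332. Srf was also called by DESeq2 with the block, and by limma and edgeR on the 6 libraries alone with the block.

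Most genes that differed were lower with MRTFB. Of 13517 genes, 359 (2.66%) were called, 346 (2.56%) of them lower and 13 (0.0962%) higher in MRTFB than in MRTFA libraries. The 207 genes called at least 2-fold lower made up 1.53% of those tested, and 65 were at least 16-fold lower, against 5 genes (0.0370%) called at least 2-fold higher. The median log2 fold change was -1.46 among genes called lower and 0.39 among genes called higher, against 0.01 over all tested genes. All MRTFB values lay below all MRTFA values for 272 of the 346 genes and for 5.38% of all tested genes. Among genes called higher, 5 of 13 had every MRTFB value above every MRTFA value, against 2.38% of all tested genes. Of the genes called lower, 331 were protein coding, and 77 passed the filter on low values through the MRTFA libraries alone, so these had to differ. In bulk RNA, fewer cells expressing a gene and less RNA per cell cannot be told apart. Genes called lower held 1.07%, 1.01% and 1.498% of all reads in MRTFB replicates 1, 2 and 3, against 2.14%, 1.69% and 2.57% in MRTFA replicates and 1.10%, 1.06% and 1.28% in controls. The count of 359 called genes fell to 222 and 233 without MRTFB replicate 1 or 2 and to 161, 155 and 166 without MRTFA replicate 1, 2 or 3, and it was 457 without MRTFB replicate 3. With no block it was 148, and Acta2, Myl9, Vcl and Csrp1, described below, then had adjusted p of 0.202, 0.47, 0.259 and 0.217.

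**Figure D1:**
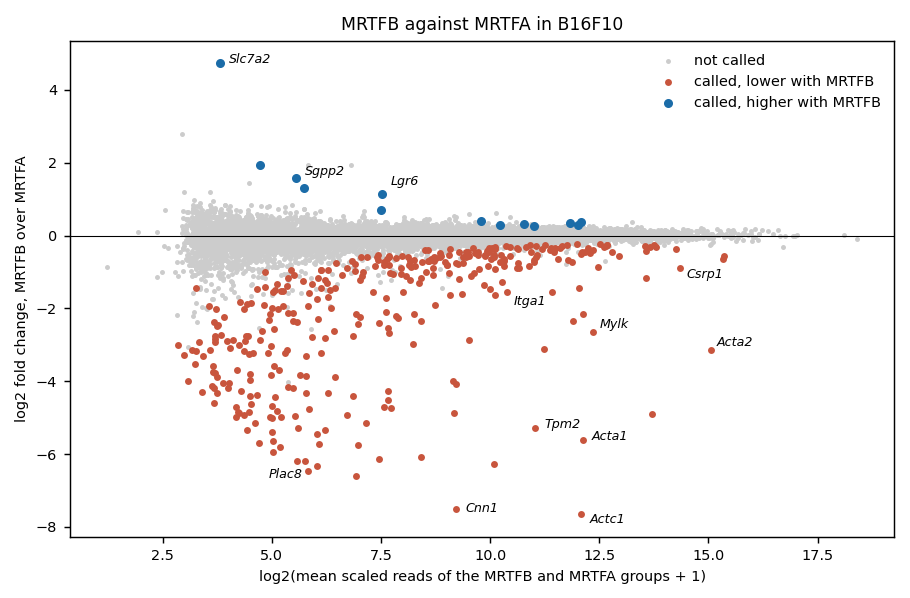
Each point is 1 of 13517 tested genes, with the log2 of the mean scaled reads of the MRTFB and MRTFA groups plus 1 on the x axis and the log2 fold change, MRTFB over MRTFA, on the y axis. The fitted values of the 346 genes called lower reach -7.65 (Actc1), and those of the 13 called higher reach 4.73 (Slc7a2).

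All 4 muscle actins were called lower with MRTFB, by far more than the cytoplasmic actins. The 6 actin genes are close paralogs, so reads may be shared between them. Cardiac alpha-actin Actc1 (ENSMUSG00000068614.7, chromosome 2, 114047282 to 114053548) had 35.3, 9.32 and 195 scaled reads in MRTFB libraries, against 9686, 6148 and 9915 in MRTFA libraries (log2 fold change -7.65, SE 0.60, adjusted p = 6.16e-05). Skeletal alpha-actin Acta1 (ENSMUSG00000031972.4, chromosome 8, 123891769 to 123894751) had 132, 59.0 and 596 in MRTFB libraries, against 11111, 5114 and 9773 in MRTFA libraries (log2 fold change -5.61, SE 0.42, adjusted p = 5.53e-05). In both genes every MRTFB library was far below every MRTFA library, and MRTFB replicate 3 was the highest of its group. Acta2 (ENSMUSG00000035783.8, chromosome 19, 34241090 to 34255590), the alpha-actin of smooth muscle, had 3856, 2146 and 28018 scaled reads in MRTFB libraries, against 58811, 37313 and 72885 in MRTFA libraries (log2 fold change -3.14, SE 0.41, adjusted p = 0.0014). Its groups did not overlap, but the gap was narrow in replicate 3: the log2 difference between libraries of equal number was -3.93, -4.12 and -1.38 for replicates 1, 2 and 3. Enteric smooth muscle actin Actg2, named after its values were seen, had 528, 281 and 3772 in MRTFB libraries, against 28906, 17741 and 29099.9 in MRTFA libraries (log2 fold change -4.90, SE 0.43, adjusted p = 0.000116). The cytoplasmic actins moved far less. Gamma-actin Actg1, also named after its values were seen, had 15376, 15896 and 20347 scaled reads in MRTFB libraries, against 22939.5, 18803 and 24544 in MRTFA libraries (log2 fold change -0.36, SE 0.08, adjusted p = 0.0276), and beta-actin Actb was not called, with 85245, 86525 and 115864 in MRTFB libraries, against 124173, 101721 and 129090.0 in MRTFA libraries (log2 fold change -0.31, SE 0.09, adjusted p = 0.15). The values of both cytoplasmic actins overlapped between the groups. Without MRTFB replicate 3 the adjusted p of Actb was 0.0328. Actb was also called by DESeq2 with the block, by limma and edgeR on the 6 libraries alone with the block, and without replicate 3 of every group.

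**Figure D2:**
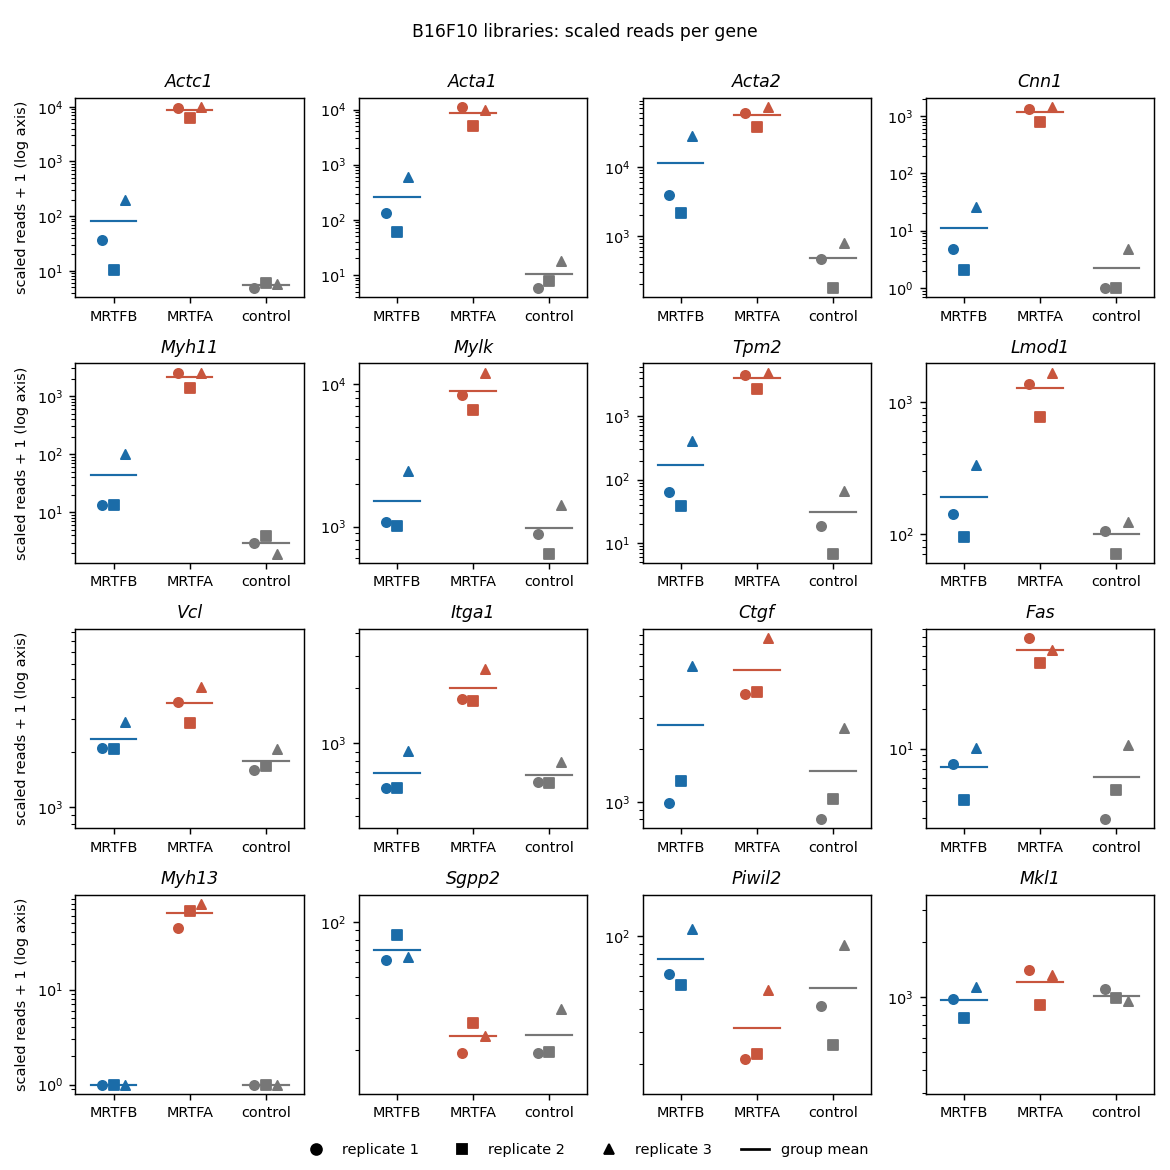
Scaled reads plus 1 on a log axis for 16 genes in the B16F10 libraries, with MRTFB left, MRTFA in the middle and control right. Marker shapes give the replicate and bars the arithmetic mean of 3 libraries. MRTFB libraries lie below MRTFA libraries for Actc1, Cnn1 and Mylk, above them for Sgpp2 and Piwil2, and overlap with them for Mkl1.

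The promoters of some genes called lower carry a CArG box, the sequence SRF binds. The 250 bases before the RefSeq start of 6 genes called lower are shown because each holds such a box, in capitals, and because they span muscle actins, a myosin light chain, a focal adhesion gene, a LIM-domain gene and a gene outside the muscle lists. They are on the gene's strand, 5′ to 3′, in GRCm38.p6.
Actc1 (chr2:114052876-114053125, minus strand): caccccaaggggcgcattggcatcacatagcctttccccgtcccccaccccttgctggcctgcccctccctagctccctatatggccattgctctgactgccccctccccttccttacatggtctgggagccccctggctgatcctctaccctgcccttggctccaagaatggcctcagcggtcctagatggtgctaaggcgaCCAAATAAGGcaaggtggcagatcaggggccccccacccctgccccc
Acta1 (chr8:123894776-123895025, minus strand): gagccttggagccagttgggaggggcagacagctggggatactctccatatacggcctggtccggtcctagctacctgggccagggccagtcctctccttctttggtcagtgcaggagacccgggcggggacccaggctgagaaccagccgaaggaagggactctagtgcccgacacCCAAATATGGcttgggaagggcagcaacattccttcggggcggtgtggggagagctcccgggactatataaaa
Myl9 (chr2:156775214-156775463, plus strand): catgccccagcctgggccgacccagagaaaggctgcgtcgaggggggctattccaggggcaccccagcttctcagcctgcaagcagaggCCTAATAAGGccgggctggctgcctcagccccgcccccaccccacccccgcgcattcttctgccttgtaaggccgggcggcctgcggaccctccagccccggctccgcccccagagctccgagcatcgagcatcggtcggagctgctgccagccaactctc
Vcl (chr14:20929148-20929397, plus strand): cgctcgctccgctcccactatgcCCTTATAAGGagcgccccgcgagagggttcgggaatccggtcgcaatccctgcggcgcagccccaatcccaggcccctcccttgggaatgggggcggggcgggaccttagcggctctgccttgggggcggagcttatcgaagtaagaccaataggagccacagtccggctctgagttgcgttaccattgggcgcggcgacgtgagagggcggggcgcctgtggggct
Fhl1 (chrX:56779433-56779682, plus strand): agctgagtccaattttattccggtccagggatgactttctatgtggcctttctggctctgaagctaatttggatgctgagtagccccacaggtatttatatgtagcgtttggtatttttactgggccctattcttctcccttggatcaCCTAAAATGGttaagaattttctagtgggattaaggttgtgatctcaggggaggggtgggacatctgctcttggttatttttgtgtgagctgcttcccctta
Stbd1 (chr5:92602801-92603050, plus strand): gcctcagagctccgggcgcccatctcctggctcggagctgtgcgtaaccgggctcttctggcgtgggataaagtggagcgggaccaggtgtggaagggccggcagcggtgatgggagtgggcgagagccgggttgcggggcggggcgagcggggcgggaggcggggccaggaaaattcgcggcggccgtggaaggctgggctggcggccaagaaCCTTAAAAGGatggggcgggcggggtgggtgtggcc
The first base of the box lies 47 bases before the start in Actc1, 73 in Acta1, 161 in Myl9, 227 in Vcl, 102 in Fhl1 and 36 in Stbd1. RefSeq windows of 250 bases before to 50 after the start matched 266 of the 346 genes called lower, and 36 of them (13.5%) held a CArG box on either strand. Among all tested genes the share was 164 of 9993 (1.64%), and among all 32851 windows it was 1.63%. For the 65 genes called at least 16-fold lower, 11 of 51 matched genes (21.6%) held a box. Genes called lower whose windows held 0 boxes included Acta2, Cnn1, Tpm2, Mylk, Lmod1, Csrp1, Tpm1 and Itga1. The window of Srf, which was not called, held 2. Of the 9 matched genes called higher, 0 held one. The hexamer GGAATG or its complement CATTCC, the core bound by TEAD factors, was in 25.6% of the windows of genes called lower and in 14.4% of those of all tested genes. These are matches of letters, not sites shown to be bound.

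Most tested genes of the smooth muscle contractile programme were called lower with MRTFB. The list held 20 genes, of which 19 were in the table and 18 were tested, 1 of them through the MRTFA libraries alone. Of these 18, 12 were called lower and 0 higher, against 2.56% of all genes called lower, and the list's median log2 fold change was -2.25, against 0.01 over all genes. Calponin Cnn1, which binds actin and dampens myosin activity, had 3.81, 1.04 and 25.1 scaled reads in MRTFB libraries, against 1325, 799 and 1437 in MRTFA libraries (log2 fold change -7.50, SE 0.47, adjusted p = 1.61e-05). Smooth muscle myosin heavy chain Myh11 had 12.4, 12.4 and 101 in MRTFB libraries, against 2536, 1378 and 2493 in MRTFA libraries (log2 fold change -6.29, SE 0.60, adjusted p = 0.000199). Neither gene overlapped between the groups, and in both MRTFB replicate 3 was the highest of its group. Myosin light chain kinase Mylk, which starts smooth muscle contraction, had 1084, 1002 and 2472 scaled reads in MRTFB libraries, against 8414, 6559.5 and 12098 in MRTFA libraries (log2 fold change -2.65, SE 0.10, adjusted p = 1.37e-06). The Mylk differences between libraries of equal number lay close together, at -2.96, -2.71 and -2.29. Beta-tropomyosin Tpm2 had 63.9, 37.3 and 407 scaled reads in MRTFB libraries, against 4434, 2731 and 4893 in MRTFA libraries (log2 fold change -5.28, SE 0.42, adjusted p = 6.87e-05), and leiomodin Lmod1, an actin nucleator of smooth muscle, had 141, 94.2 and 329.7 in MRTFB libraries, against 1363, 770.8 and 1662 in MRTFA libraries (log2 fold change -2.87, SE 0.18, adjusted p = 1.61e-05). The groups did not overlap for either gene.

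Some smooth muscle genes rested more on replicates 1 and 2. The regulatory light chain Myl9, which had 1075, 789 and 3578 scaled reads in MRTFB libraries, against 6872, 3684 and 10678 in MRTFA libraries (log2 fold change -2.16, SE 0.21, adjusted p = 0.000199), was apart in every library, with its largest MRTFB value in replicate 3. Transgelin Tagln, an actin-bundling protein, had 630.0, 458 and 4709 in MRTFB libraries, against 5796, 4425 and 6982 in MRTFA libraries (log2 fold change -2.35, SE 0.41, adjusted p = 0.00906). MRTFB replicate 3 exceeded MRTFA replicate 2 for Tagln, and its log2 differences by replicate number were -3.20, -3.27 and -0.57. The Tagln call was lost without MRTFB replicate 1 or 2 (adjusted p = 0.0834 and 0.0758) and without MRTFA replicate 1 or 2 (adjusted p = 0.0983 and 0.157). Without MRTFB replicate 3 its log2 fold change was -2.91. Leaving out replicate 3 of every group left 11 of 15 tested members of the list called lower, with a median of -2.45. Members not called included Cald1, Des, Itga8, Smtn and Tgfb1i1, with log2 fold changes of -0.42 to -0.09.

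Striated muscle genes, which build the sarcomere and are low in control B16F10 cells, were called lower in 8 of 15 tested cases and higher in 0, against 2.56% of all genes called lower, with a list median of -2.69. The list held 24 genes, 21 of them in the table. Ckm, Lmod3, Myh13, Myh6 and Myl1 were tested through the MRTFA libraries alone, so their calls and part of the median are set by the filter. Of the other 10, 3 were called lower. Besides Actc1 and Acta1 these were Ankrd1, Ckm, Lmod3, Myh13, Myh6 and Myl1. Ckm, Lmod3 and Myh6 are named after their values were seen. Myosin heavy chain Myh13 of extraocular muscle had 0, 0 and 0 scaled reads in MRTFB libraries, against 43.4, 66.2 and 79.2 in MRTFA libraries, at least 63.5-fold lower when 3 reads are allowed over the MRTFB group (adjusted p = 7.07e-05). Cardiac myosin heavy chain Myh6 had 0 reads in the MRTFB libraries and 104 in the MRTFA libraries, at least 34.7-fold lower on the same footing. Both genes were at 0 in the controls too. Myosin light chain Myl1 of fast muscle had 1 read in MRTFB libraries and 213 in MRTFA libraries, an MRTFA over MRTFB ratio of 213 (95% interval 37.9 to 8468). The leiomodin Lmod3 of striated muscle likewise had 1 read in MRTFB libraries and 118 in MRTFA libraries, a ratio of 118 (95% interval 20.8 to 4709). Ckm, the muscle creatine kinase, had 1.91, 4.14 and 5.01 scaled reads in MRTFB libraries, against 88.7, 52.8 and 109.7 in MRTFA libraries (log2 fold change -4.18, SE 0.37, adjusted p = 0.000114). Ttn, the giant sarcomeric protein titin, was not called and had 18.1, 9.32 and 14.0 scaled reads in MRTFB libraries, against 14.1, 7.24 and 20.03 in MRTFA libraries (log2 fold change 0.06, SE 0.35, adjusted p = 0.974). Leaving out MRTFA replicate 1, 2 or 3 left 10 of these genes testable, of which 2, 2 and 3 were called lower, since a gene present in MRTFA libraries alone then failed the filter.

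Most cytoskeletal targets of MRTF and SRF differed by small amounts. Of 33 genes 32 were in the table and tested, of which 15 were called lower and 0 higher, against 2.56% of all genes called lower, with a list median of -0.30. The LIM protein Csrp1, an actin-bundling partner of alpha-actinin, had 12227, 13208 and 18015 scaled reads in MRTFB libraries, against 24413, 20907 and 35418 in MRTFA libraries (log2 fold change -0.88, SE 0.08, adjusted p = 0.000102). Calponin Cnn2 had 2787, 2781 and 6624 in MRTFB libraries, against 6499, 4571 and 10613 in MRTFA libraries (log2 fold change -0.87, SE 0.09, adjusted p = 0.000333). The groups were apart for Csrp1 and overlapped for Cnn2, whose replicate 3 was high in both groups. Tropomyosin Tpm1 had 29032, 29622 and 37055 scaled reads in MRTFB libraries, against 49332, 43532 and 57207 in MRTFA libraries (log2 fold change -0.65, SE 0.08, adjusted p = 0.0007). Vinculin Vcl, which ties integrins to actin, had 2096, 2056 and 2902 in MRTFB libraries, against 3748, 2872 and 4483 in MRTFA libraries (log2 fold change -0.65, SE 0.08, adjusted p = 0.00112). For Vcl only MRTFB replicate 3 reached MRTFA replicate 2, and the differences by replicate number were -0.84, -0.48 and -0.63. Only Tpm2 and Fhl1 of this list were called at least 2-fold lower. Both were low in controls, with 17.3, 5.84 and 65.9 scaled reads for Tpm2 and 15.4, 6.82 and 6.68 for Fhl1. Fhl1, a LIM-domain gene of muscle named after its values were seen, had 8.58, 16.6 and 205 scaled reads in MRTFB libraries, against 759, 644 and 1825 in MRTFA libraries (log2 fold change -4.88, SE 0.73, adjusted p = 0.00343). Core parts of the actin machinery were not called, among them cofilin Cfl1 (log2 fold change -0.05, SE 0.05, adjusted p = 0.794) and profilin Pfn1 (log2 fold change -0.04, SE 0.05, adjusted p = 0.862). With replicate 3 left out of every group, 15 of 31 members were called. Leaving out a single library gave 9 to 15 of 32 called, lowest at 9 without MRTFA replicate 3 and 10 without MRTFB replicate 1, and without the block 3 were called.

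A few adhesion and matrix genes were also called lower. Of 28 tested integrin and focal adhesion genes 4 were called lower (list median -0.12), against 2.56% of all genes. Integrin alpha-1, Itga1, which pairs with beta-1 as a collagen and laminin receptor, had 567, 572 and 911 scaled reads in MRTFB libraries, against 1752, 1699.9 and 2550.0 in MRTFA libraries (log2 fold change -1.56, SE 0.08, adjusted p = 4.8e-06). Itga5, the alpha chain of the fibronectin receptor, had 1312, 937 and 1978 in MRTFB libraries, against 4458, 2772 and 4904 in MRTFA libraries (log2 fold change -1.55, SE 0.18, adjusted p = 0.000613). Both genes were clearly apart in all libraries. The other 2 were Vcl and the focal adhesion protein tensin Tns1 (log2 fold change -0.81, SE 0.10, adjusted p = 0.00076). Among 30 tested collagen and matrix genes 5 were called lower (median -0.17), against 2.56% of all genes. Col3a1 and Fbn1 were tested through the MRTFA libraries alone, so their calls were set by the filter. Of the other 28 genes, 3 were called lower. Type III collagen Col3a1 had 0.953, 3.11 and 9.02 scaled reads in MRTFB libraries, against 270.2, 149 and 316 in MRTFA libraries (log2 fold change -5.76, SE 0.47, adjusted p = 7.6e-05). Fibrillin Fbn1, of elastic microfibrils, had 4.77, 4.14 and 9.02 in MRTFB libraries, against 87.7, 69.3 and 147 in MRTFA libraries (log2 fold change -3.87, SE 0.30, adjusted p = 5.68e-05). The metalloproteinase inhibitor Timp3 was lower by less, with 797, 508 and 995 scaled reads in MRTFB libraries, against 1516, 1011 and 1826 in MRTFA libraries (log2 fold change -0.93, SE 0.08, adjusted p = 8.57e-05), and its groups did not overlap.

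Within the plasminogen system the genes went in different directions. Of 18 tested genes of proteases and their inhibitors 3 were called lower and 1 higher, against 2.56% of all genes called lower and 0.0962% called higher. Tissue plasminogen activator Plat had 173, 177 and 319 scaled reads in MRTFB libraries, against 92.8, 113 and 211 in MRTFA libraries (log2 fold change 0.71, SE 0.15, adjusted p = 0.0302). Urokinase Plau had 91.5, 69.4 and 295 in MRTFB libraries, against 287, 174 and 328 in MRTFA libraries (log2 fold change -1.04, SE 0.23, adjusted p = 0.0448), and its receptor Plaur had 605, 617 and 1266 in MRTFB libraries, against 1263, 895 and 1581 in MRTFA libraries (log2 fold change -0.64, SE 0.14, adjusted p = 0.0381). Values overlapped for all 3 genes, and replicate 3 was the highest of each group. These calls were close to the threshold. Without MRTFB replicate 1 the adjusted p was 0.232 for Plat, 0.283 for Plau and 0.253 for Plaur, and each was also lost without MRTFB replicate 2 (0.187, 0.31 and 0.23), MRTFA replicate 1 (0.14, 0.224 and 0.179) or MRTFA replicate 2 (0.13, 0.328 and 0.106). Without MRTFA replicate 3 Plat (0.234) and Plaur (0.117) were lost.

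YAP-TAZ targets and immediate early genes, which share stimuli with MRTF, gave few calls. Over all tested genes 2.56% were called lower. Of 18 tested YAP-TAZ targets 3 were called lower (median -0.08): Ankrd1, Ctgf and Cyr61. The matricellular gene Ctgf had 983, 1310.0 and 5971 scaled reads in MRTFB libraries, against 4123, 4229 and 8625 in MRTFA libraries (log2 fold change -1.43, SE 0.21, adjusted p = 0.00338), and its relative Cyr61 had 1835, 2015 and 4838 in MRTFB libraries, against 3745, 3345 and 6604 in MRTFA libraries (log2 fold change -0.74, SE 0.09, adjusted p = 0.00129). In both genes MRTFB replicate 3 was above MRTFA replicates 1 and 2, so the groups overlapped, while every replicate number gave a lower MRTFB value. The Ctgf call was lost without MRTFA replicate 2 (adjusted p = 0.0783). Ankrd1, a nuclear and sarcomeric repeat protein, had 20.01, 19.7 and 255 scaled reads in MRTFB libraries, against 305, 265 and 364 in MRTFA libraries (log2 fold change -2.69, SE 0.51, adjusted p = 0.0163), and its call was lost without MRTFB replicate 1 or 2 (adjusted p = 0.127 and 0.129) and without MRTFA replicate 1 or 2 (0.137 and 0.23). Without MRTFB replicate 3 the log2 fold change of Ankrd1 was -3.54. Of 21 immediate early genes 2 were called lower, the phosphatase Dusp1 (log2 fold change -0.60, SE 0.10, adjusted p = 0.00634) and Fos (log2 fold change -0.72, SE 0.15, adjusted p = 0.0299). Neither call held without MRTFB replicate 1 (adjusted p = 0.062 and 0.195), MRTFA replicate 1 (0.0643 and 0.17) or MRTFA replicate 3 (0.0681 and 0.191), nor did that of Fos without MRTFB replicate 2 (0.0646). Egr1, the classical target of SRF with ternary complex factors, was not called: it had 177, 99.4 and 257 scaled reads in MRTFB libraries, against 192, 114 and 455 in MRTFA libraries (log2 fold change -0.38, SE 0.28, adjusted p = 0.704). Its values overlapped widely.

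**Figure D3:**
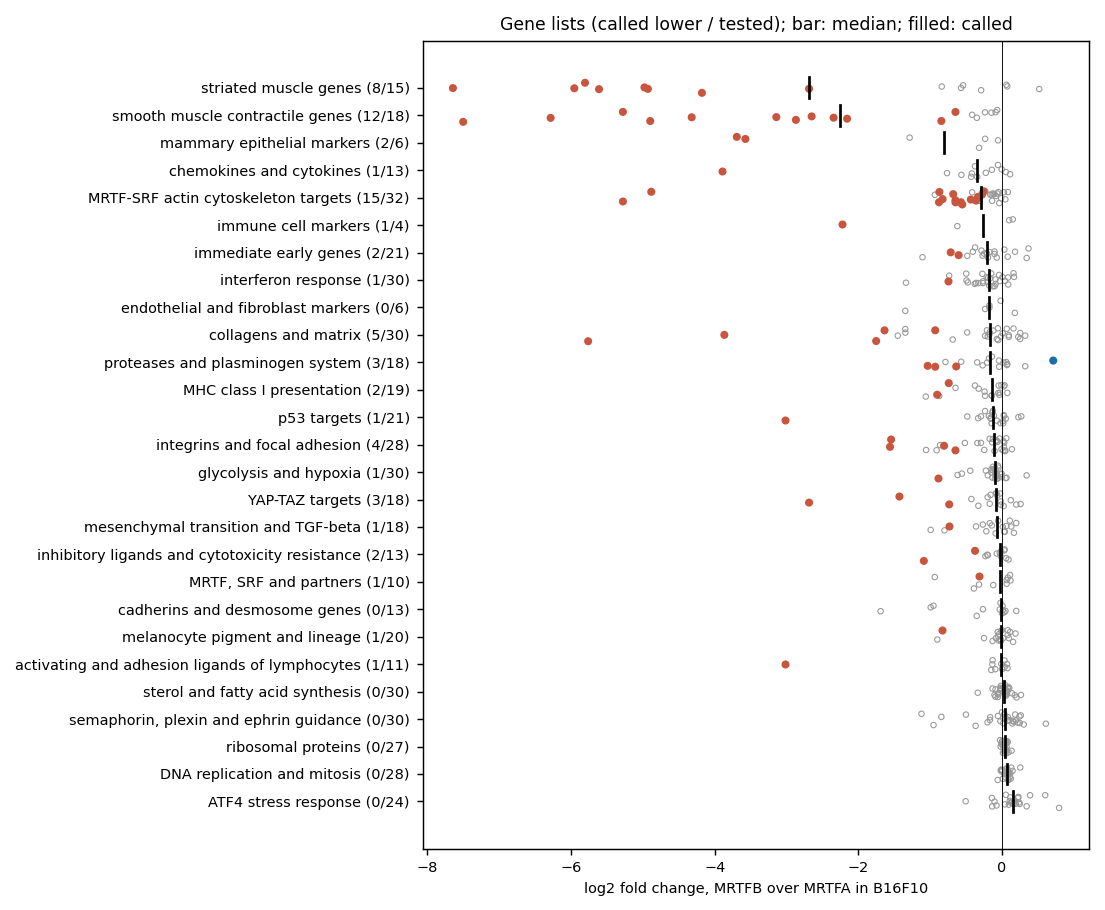
Log2 fold change, MRTFB over MRTFA, of every tested member of 27 gene lists, with called genes filled, lower in red and higher in blue, and the list median as a black bar. Counts in brackets are members called lower of those tested. The muscle lists have medians of -2.69 and -2.25, and ribosomal and DNA replication genes lie close to 0.

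The largest differences included genes outside the muscle lists. Of those named here, Apol10b, Plac8, Dnase1l3 and P2rx1 were tested through the MRTFA libraries alone, so their calls were set by the filter. Apol10b, of the apolipoprotein L family, had 0, 1.04 and 5.01 scaled reads in MRTFB libraries, against 188, 161 and 371 in MRTFA libraries (log2 fold change -6.61, SE 0.40, adjusted p = 1.4e-05). Pilra, an inhibitory immunoglobulin-like receptor known from myeloid cells, had 4.77, 2.07 and 50.1 in MRTFB libraries, against 623, 561 and 792 in MRTFA libraries (log2 fold change -6.08, SE 0.71, adjusted p = 0.000723). Neither gene overlapped between the groups. Mrvi1, a partner of the IP3 receptor in smooth muscle relaxation, had 2.86, 1.04 and 13.03 scaled reads in MRTFB libraries, against 380.1, 274 and 369 in MRTFA libraries (log2 fold change -6.14, SE 0.44, adjusted p = 4.03e-05). For 3 further genes the MRTFB libraries held 1 to 3 reads in all, so the ratio of MRTFA over MRTFB is given with its counting interval. It was 338 (95% interval 60.2 to 13380.0) for Plac8, 129 (95% interval 43.8 to 628) for the secreted nuclease Dnase1l3 and 159 (95% interval 43.7 to 1321) for the ATP-gated channel P2rx1. Stbd1, a glycogen-binding protein whose promoter is shown above, had 7.62, 9.32 and 11.0 scaled reads in MRTFB libraries, against 191, 186 and 286 in MRTFA libraries (log2 fold change -4.41, SE 0.23, adjusted p = 4.8e-06). Its differences by replicate number were close together, at -4.47, -4.18 and -4.58, and its MRTFB values lay below the controls' 16.4, 12.7 and 13.4.

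Few genes were higher with MRTFB, and 5 of the 13 called were at least 2-fold higher. The sphingosine-1-phosphate phosphatase Sgpp2 (ENSMUSG00000032908.9, chromosome 1, 78310345 to 78420289) had 61.0, 83.9 and 63.1 scaled reads in MRTFB libraries, against 18.1, 26.9 and 22.9 in MRTFA libraries and 18.3, 18.5 and 32.5 in controls (log2 fold change 1.58, SE 0.25, adjusted p = 0.00561). Piwil2, a PIWI protein of the germline, had 61.0, 52.8 and 108 in MRTFB libraries, against 20.2, 21.7 and 49.6 in MRTFA libraries and 40.4, 24.3 and 87.8 in controls (log2 fold change 1.30, SE 0.21, adjusted p = 0.00651). Every MRTFB value was above every MRTFA value in both genes, and for Piwil2 the control values overlapped with those of both groups. Limd2 met the same criteria with a small difference (log2 fold change 0.30, SE 0.07, adjusted p = 0.0397). Slc7a2, a cationic amino acid transporter below the level set for naming and named after its values were seen, had 29.5, 31.1 and 18.04 scaled reads in MRTFB libraries, against 0 reads in the MRTFA libraries, at least 26.3-fold higher when 3 reads are allowed over the MRTFA group. Lgr6, a receptor for R-spondins also named after its values were seen, had 126, 174 and 474 in MRTFB libraries, against 61.5, 84.8 and 182 in MRTFA libraries (log2 fold change 1.14, SE 0.16, adjusted p = 0.00198), with overlapping values. The other genes called higher, named after their values were seen, were Adcy7, Bdh1, Dennd2a, Gm773, Masp1, Mta1, Plat and Tubb3. A further 9 genes were named by their unadjusted p and were not called: Crmp1, Dcaf15, Entpd2, Gdf11, Lsm14b, Pkn3, Rnaseh2a, Ube2c and Wwc1 had log2 fold changes of 0.20 to 0.42, with every MRTFB value above every MRTFA value. The call of Sgpp2 was lost without MRTFB replicate 1 or 2 (adjusted p = 0.0541 and 0.0639) or MRTFA replicate 1 or 3 (0.0574 and 0.0524), and that of Piwil2 likewise (0.0609, 0.0649, 0.0699 and 0.0519). The Limd2 call was lost without any single library of the 6, with adjusted p of 0.053, 0.356 and 0.0847 without MRTFB replicates 1, 2 and 3 and of 0.105, 0.24 and 0.213 without MRTFA replicates 1, 2 and 3.

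Of 11 tested ligands and receptors through which lymphocytes are activated by, adhere to or kill tumour cells, 1 was called, the death receptor Fas. It had 6.67, 3.11 and 9.02 scaled reads in MRTFB libraries, against 67.6, 43.5 and 54.4 in MRTFA libraries and 1.92, 3.89 and 9.54 in controls (log2 fold change -3.02, SE 0.42, adjusted p = 0.00227). The MRTFB values lay within the range of the controls. Fas was tested through the MRTFA libraries alone, so its call was set by the filter, and 0 of the other 10 genes were called lower. Over all tested genes 2.56% were called lower, the share to set beside this and the following counts. Of 13 inhibitory and resistance genes 2 were called lower, Cd47, the signal against phagocytosis (log2 fold change -0.38, SE 0.07, adjusted p = 0.0214), and the granzyme inhibitor family member Serpinb6b (log2 fold change -1.09, SE 0.22, adjusted p = 0.0238). Of 19 MHC class I genes 2 were called lower, the peptide transporter Tap2 (log2 fold change -0.90, SE 0.15, adjusted p = 0.00656) and its partner Tapbp (log2 fold change -0.74, SE 0.16, adjusted p = 0.0324), and of 30 interferon genes 1, Gbp2, which had 824, 760.1 and 2069 in MRTFB libraries, against 1520.5, 1372 and 2991 in MRTFA libraries (log2 fold change -0.75, SE 0.08, adjusted p = 0.0003). Replicate 3 was high for Tap2, Tapbp and Gbp2 in every group, and B2m, the MHC class I light chain, was not called (log2 fold change -0.24, SE 0.09, adjusted p = 0.318). The calls of Cd47, Serpinb6b, Tap2 and Tapbp were each lost without MRTFA replicate 2, with adjusted p of 0.183, 0.24, 0.0619 and 0.0974, and without MRTFA replicate 3, with 0.188, 0.0731, 0.0649 and 0.193. Serpinb6b, Tap2 and Tapbp were also lost without MRTFB replicate 1 (0.165, 0.0623 and 0.225) or MRTFA replicate 1 (0.0969, 0.0712 and 0.184). Cd47, Serpinb6b and Tapbp were lost without MRTFB replicate 2 (0.2, 0.186 and 0.211), and Cd47 without MRTFB replicate 3 (0.0632).

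Several programmes gave few calls or none, to be set beside 2.56% of all genes called lower and 0.0962% called higher. By limma, 0 genes were called among 28 DNA replication and mitosis genes (list median 0.07), 27 ribosomal proteins (0.05) and 30 sterol and fatty acid synthesis genes (0.03), and 0 by edgeR or DESeq2. Over all 13517 tested genes, 423 were higher and 978 lower at an unadjusted limma p under 0.05, the background for the counts at that threshold. At an unadjusted p under 0.05, 2 replication genes and 2 sterol genes were higher, 0 were lower, and 0 ribosomal genes were either. Among 24 ATF4 stress genes (median 0.15) 0 were called by limma or edgeR, while DESeq2 called 2 higher and 1 lower, and 10 were higher and 1 lower at an unadjusted p under 0.05. Among 30 guidance genes (median 0.04) and 13 cadherin and desmosome genes (median -0.02) 0 were called by limma, edgeR or DESeq2, and at an unadjusted p under 0.05 the higher and lower genes numbered 4 and 4 for guidance and 1 and 3 for cadherins. In the lineage of the cells, 1 of 20 melanocyte genes was called, the melanosomal transporter Oca2, which had 109.6, 89.1 and 159 scaled reads in MRTFB libraries, against 199.6, 220.4 and 203 in MRTFA libraries (log2 fold change -0.83, SE 0.17, adjusted p = 0.0236). The lineage factor Pax3 was not called (log2 fold change 0.11, SE 0.06, adjusted p = 0.555). Of 30 glycolysis and hypoxia genes 1 was called lower, the prolyl hydroxylase Egln3 (log2 fold change -0.89, SE 0.20, adjusted p = 0.0406), and of 18 mesenchymal transition genes 1, Tgfb3 (log2 fold change -0.73, SE 0.08, adjusted p = 0.000546). Of 13 chemokines and cytokines 1 was called lower, the granulocyte growth factor Csf3, whose MRTFA over MRTFB read ratio was 36.6 (95% interval 9.77 to 308). Csf3 was tested through the MRTFA libraries alone, so its call was set by the filter, and 0 of the other 12 were called lower. Of 10 partners of MRTF and SRF 1 was called lower, the ternary complex factor Elk1 (log2 fold change -0.32, SE 0.07, adjusted p = 0.0394), and this call was lost without any single MRTFB or MRTFA library, with adjusted p of 0.247, 0.173 and 0.0565 without MRTFB replicates 1, 2 and 3 and of 0.155, 0.067 and 0.385 without MRTFA replicates 1, 2 and 3. Of 21 p53 targets 1 was called, Fas, which was tested through the MRTFA libraries alone, and 0 of the other 20 were called lower. The calls of Oca2 and Egln3 were lost without MRTFB replicate 1 (adjusted p = 0.124 and 0.228), MRTFB replicate 2 (0.138 and 0.27), MRTFA replicate 1 (0.134 and 0.119) or MRTFA replicate 2 (0.24 and 0.158), and that of Egln3 also without MRTFA replicate 3 (0.324).

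Set against the 3 control libraries, several muscle genes were called higher with each transgene, and the direct contrast above is the test between the transgenes. The control comparisons share their controls and each shares a group with the direct contrast, so their values are given side by side only. With MRTFB 603 genes (4.46%) were called, of which 220 genes (1.63%) were higher than control and 383 (2.83%) lower. With MRTFA 855 (6.33%) were called, of which 538 (3.98%) were higher and 317 (2.35%) lower. Acta2 had a log2 fold change over control of 3.93 (SE 0.41, adjusted p = 0.00174) with MRTFB and of 7.07 (SE 0.41, adjusted p = 3.96e-06) with MRTFA, and its control values were 463, 176 and 798 scaled reads. Actc1 had 2.94 (SE 0.60, adjusted p = 0.0248) with MRTFB and 10.58 (SE 0.60, adjusted p = 3.42e-06) with MRTFA. Both actins were called higher than control with each transgene. Mylk had 0.58 (SE 0.10, adjusted p = 0.0156) with MRTFB and 3.23 (SE 0.10, adjusted p = 1.79e-07) with MRTFA. The integrin Itga1 had 0.01 (SE 0.08, adjusted p = 0.976) with MRTFB and 1.57 (SE 0.08, adjusted p = 1.52e-06) with MRTFA, and Col3a1 had 0.09 (SE 0.47, adjusted p = 0.939) with MRTFB and 5.86 (SE 0.47, adjusted p = 4.4e-05) with MRTFA. Sgpp2 had 1.58 (SE 0.25, adjusted p = 0.00945) with MRTFB and 0.01 (SE 0.25, adjusted p = 0.989) with MRTFA. Of 18 smooth muscle genes 9 were called higher than control with MRTFB and 13 with MRTFA, and of 32 cytoskeletal genes 3 with MRTFB and 15 with MRTFA. The 603 genes called with MRTFB became 17 (2 higher, 15 lower) with no block, 114, 64, 71 and 87 without MRTFB replicate 1, MRTFB replicate 2, control replicate 1 and control replicate 2, and 1645 without control replicate 3. The 855 called with MRTFA became 209 (181 higher, 28 lower) with no block, 288, 268 and 436 without MRTFA replicates 1, 2 and 3, 416 without control replicate 1 or control replicate 2, and 1597 without control replicate 3.

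**Figure D4:**
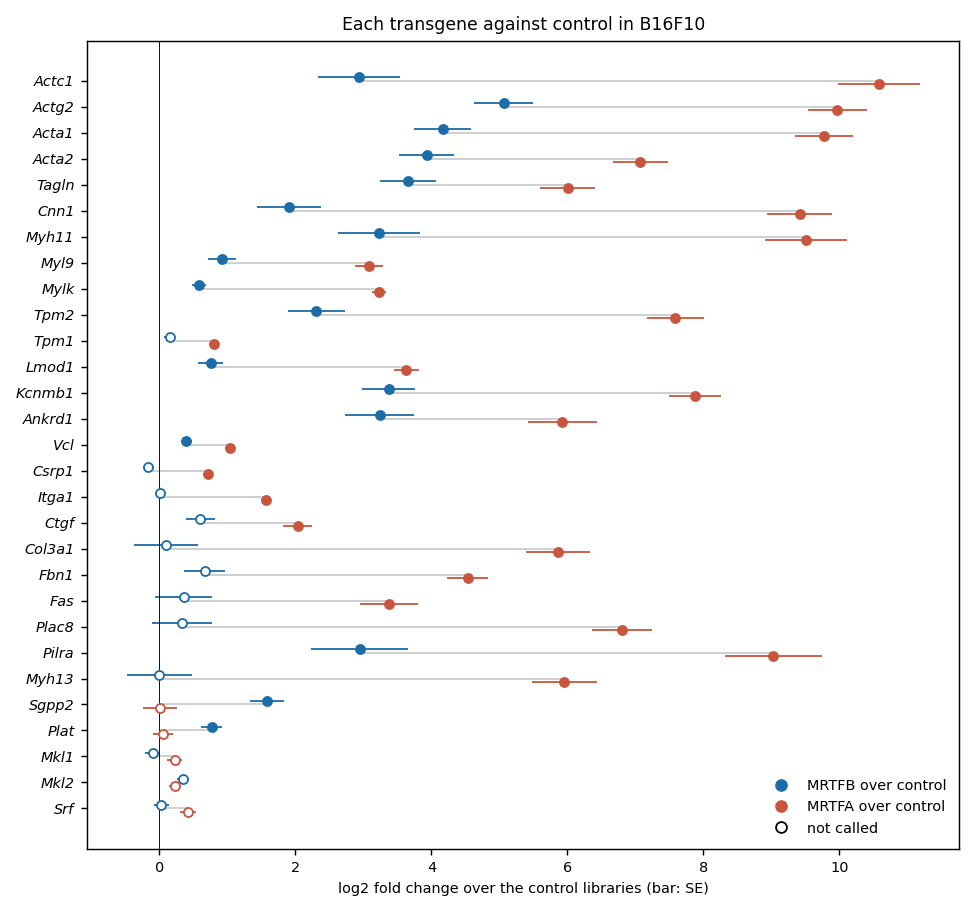
Log2 fold change over the 3 control libraries with its SE for 29 genes, MRTFB in blue and MRTFA in red, with filled points called. Acta2 stands at 3.93 with MRTFB and 7.07 with MRTFA, and Itga1 at 0.01 with MRTFB and 1.57 with MRTFA.

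The direct contrast was also measured in E0771 cells, and the difference between lines was tested over all 18 libraries. That difference, E0771 minus B16F10, was called for 4018 of 14859 genes (27.0%), 1676 (11.3%) higher and 2342 (15.8%) lower. The split was 2463 higher and 2092 lower with upper-quartile scaling. Within E0771 the contrast called 6753 genes (45.4%), 3244 (21.8%) higher and 3509 (23.6%) lower. Of the 346 genes called lower in B16F10, 331 (95.7%) had a value below 0 in E0771, against 46.9% of all genes tested in B16F10. Their difference between lines was called lower for 185 and higher for 33. Cnn1 differed less in E0771, with 67.5, 89.4 and 59.6 scaled reads in E0771 MRTFB libraries, against 2189, 1981 and 932 in E0771 MRTFA libraries, and a line difference of 3.04 (adjusted p = 0.00371). Actc1 differed more, with 10.1, 18.8 and 16.6 scaled reads in E0771 MRTFB libraries, against 101414, 91111 and 45202 in E0771 MRTFA libraries, and a line difference of -4.57 (adjusted p = 0.00201). For Acta2 the log2 fold change was -3.40 in E0771 and -3.14 in B16F10, and the line difference of -0.26 (adjusted p = 0.775) was not called. The largest negative line difference was that of the phospholipase Plcb4, whose B16F10 groups overlapped. In E0771 controls, Plcb4 was near 0 too, with 2.01, 4.01 and 6.54 scaled reads. Plcb4 had 2.25, 2.82 and 8.83 scaled reads in E0771 MRTFB libraries, against 1724, 2027 and 1444 in E0771 MRTFA libraries, while it had 1829, 1897 and 2037 in B16F10 MRTFB libraries, against 1655, 1953 and 2196 in B16F10 MRTFA libraries, and its line difference was -8.43 (adjusted p = 6.98e-08). In the other direction Ltbp1, which holds latent TGF-beta in the matrix, had 3552, 3345 and 4458 scaled reads in E0771 MRTFB libraries, against 3326, 2942 and 4554 in E0771 MRTFA libraries, and 37.2, 34.2 and 182 in B16F10 MRTFB libraries, against 512, 341 and 700.0 in B16F10 MRTFA libraries, with a line difference of 3.07 (adjusted p = 0.00049). The E0771 groups overlapped for Ltbp1, and the B16F10 groups did not.

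**Figure D5:**
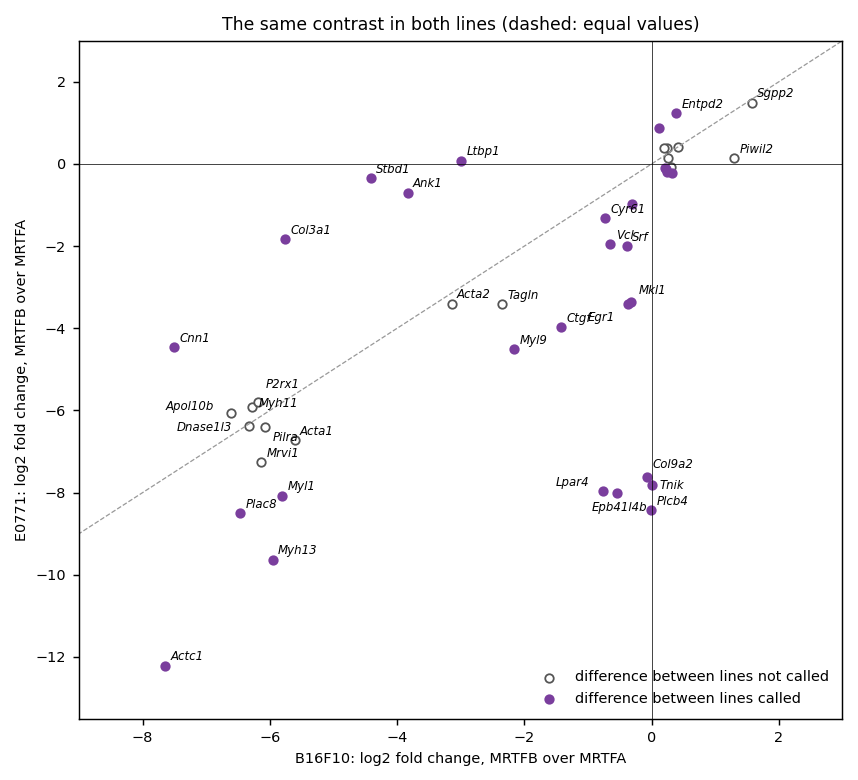
Log2 fold change, MRTFB over MRTFA, in B16F10 on the x axis and in E0771 on the y axis for the named anchor genes, the largest differences and the largest line differences, with filled points where the line difference was called. Actc1 lies at -12.22 in E0771 and -7.65 in B16F10, and Ltbp1 at 0.08 in E0771 and -2.99 in B16F10.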

How the data were processed

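RNA was measured in 18 libraries of B16F10 and E0771 cells, grouped by line, transgene and replicate number in the labels. Per the submitters' processing notes, cutadapt 1.6, STAR 2.5.0a, HTSeq 0.5.3, DESeq and the mm10 build were used; the annotation, strand setting and counting mode are not stated there, so antisense partners and close paralogs may share reads. The values deposited are a signal, namely each gene's reads over a size factor of the library. Dividing them by that factor's step gave whole reads within 2.3e-09, which summed to 27607055 to 37116655 per library. A count of 0 in a library allows 3 reads, and intervals and limits cover counting error only, since the reads carry no molecular identifiers.

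Genes with at least 10 scaled reads in at least 3 of the 9 B16F10 libraries were tested with limma 3.58.1 (trend, two-sided) on log2 of the value plus 1, in R 4.3.3. The 9 libraries shared the spread, with replicate number as a block, and the line difference used all 18 libraries with replicate within line as a block. Fold changes understate low genes. The labels do not say what replicate numbers mean. They were read as pairs because the contrast was defined with equal numbers as a block. Deviations of equal-numbered MRTFB and MRTFA libraries correlated at 0.40, 0.53 and 0.63 in B16F10 and at 0.11, 0.33 and 0.26 in E0771. Those of unequal number correlated at -0.46 to 0.06 in B16F10. These values come from the libraries tested, so they are no separate support for the block. No libraries of a group were duplicates: chi-square per degree of freedom was 11.7 or more. edgeR 4.0.16 and DESeq2 1.42.0 were run on the recovered reads only as alternatives. The limma fit was also run on counts simulated without a replicate effect, so that check cannot speak to the block.

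The members and 27 gene lists were chosen from general knowledge with earlier results of these data known. Named genes were 14 anchors, the 12 largest called differences each way with groups apart and a mean of at least 50, filled by lowest unadjusted p where fewer than 12 qualified, up to 4 genes a list by adjusted p, and the 5 largest line differences each way. Symbols in the table are older ones, and positions are from GENCODE M21 (GRCm38). Promoter windows came from RefSeq (GRCm38.p6).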

Additional observations from a re-analysis of the deposited data

Results flagged for a closer look

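The values here differed between E0771 and B16F10 cells in the test of the difference itself, E0771 minus B16F10 on the log2 scale, which called 4018 genes. Only the genes named for their role, their change or their line difference are listed, and no cause was tested.

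Among MRTF and SRF genes, the difference was -3.03 for Mkl1, 0.75 for Mkl2 and -1.61 for Srf. In E0771 Srf had 1940.3, 3293 and 4287 scaled reads in MRTFB libraries, against 11632, 13443 and 11319.5 in MRTFA libraries, with no overlap. The muscle and cytoskeletal genes differed by -4.57 (Actc1), -3.68 (Myh13), -2.35 (Myl9), -2.27 (Myl1), -1.31 (Vcl), -0.66 (Actb) and 3.04 (Cnn1). For all of these but Cnn1 the MRTFB libraries were further below the MRTFA libraries in E0771. The immediate early gene Egr1 differed by -3.04 and had 6.75, 4.71 and 18.8 scaled reads in E0771 MRTFB libraries, against 107, 76.2 and 127 in E0771 MRTFA libraries, apart in every library. The YAP-TAZ targets Ctgf and Cyr61 differed by -2.55 and -0.58, and Plac8 by -2.04.

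The 5 largest negative differences were -8.43 for Plcb4, -7.83 for Tnik, -7.56 for Col9a2, -7.46 for Epb41l4b and -7.21 for Lpar4. Tnik, a kinase of the Wnt pathway, had 2.25, 0.941 and 0 scaled reads in E0771 MRTFB libraries, against 349.6, 497 and 413 in E0771 MRTFA libraries, while it had 873, 881 and 899 in B16F10 MRTFB libraries, against 817, 964 and 862 in B16F10 MRTFA libraries. It was near 0 in a single group of the 4. Col9a2 had 0 reads in the E0771 MRTFB libraries, so its fitted value depends on the pseudocount.

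The 5 largest positive differences were 4.07 for Stbd1, 3.93 for Col3a1, 3.71 for Shank3, 3.13 for Ank1 and 3.07 for Ltbp1. Stbd1 was at or near 0 in E0771, with 0, 0 and 0 scaled reads in MRTFB libraries, against 0, 0 and 1.04 in MRTFA libraries, so there was no level there that could differ. Col3a1 was high in E0771, with 2486, 3571 and 3145 scaled reads in MRTFB libraries, against 10482, 10759 and 11128 in MRTFA libraries, and the groups did not overlap. The ankyrin gene Ank1 had 1186, 1362 and 1293 scaled reads in E0771 MRTFB libraries, against 2155, 2234 and 1871 in E0771 MRTFA libraries, also apart. Shank3 did not pass the filter of the B16F10 fit. Of the genes named for being higher with MRTFB in B16F10, Entpd2 differed by 0.85, Gdf11 by -0.55, Dcaf15 by -0.43, Ube2c by -0.33 and Lsm14b by -0.31.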

How the results depend on the processing

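Each of the 58 named genes called kept its direction under every setting in which it could be tested, and 21 were called under each such setting. Among these, Acta1, Actc1, Myh11, Mylk, Tpm2, Lmod1 and Itga1 could be tested under all 20 settings, and Cnn1 under 19. Apol10b, Plac8, P2rx1, Myl1, Col3a1 and Fbn1 could be tested under 14, and Ank1, Csf3, Fas and Krt19 under 13. All of these failed the filter once an MRTFA library was left out, so their calls were not tried there. The 359 genes called changed by less than 1.5 times with a pseudocount of 5, other scalings, no filter, edgeR, DESeq2, or the 6 libraries alone with the block. They numbered 239 with a minimum of 50 scaled reads. DESeq2 gave adjusted p of 0.0514 for Dnase1l3 and 0.539 for Myh13, and Krt7 was lost under DESeq2 (0.146) and edgeR (0.0702). Ankrd1 (0.0516) and Plau (0.0743) were lost under edgeR. The causes were not tested.

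Without this pairing of libraries by number the calls numbered 148 for MRTFB against MRTFA (130 in the 6 libraries alone), 17 for MRTFB against control, 209 for MRTFA against control and 2067 for the line difference. Acta2, Myl9, Vcl, Cyr61, Csrp1, Cnn2, Timp3, Tgfb3, Gbp2 and Tns1 were among the named genes then not called.

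Leaving out 1 library gave 155 to 457 calls for MRTFB against MRTFA, 64 to 1645 for MRTFB against control, 268 to 1597 for MRTFA against control and 2841 to 4624 for the line difference. Leaving out replicate 1, 2 or 3 of every group gave 98, 92 and 373 calls for MRTFB against MRTFA, with fewer samples. Depth limited genes under 10 scaled reads: a count of 0 in a library allowed 2.79 to 3.38 scaled reads.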
